A study of Mus musculus with 6 samples.

Results

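A set of 10 genes used as markers of endothelial cells was followed through the deposited expression table of cultured mouse aortic smooth muscle cells. The members were given by symbol, namely Pecam1, Cdh5, Tek, Tie1, Emcn, Vwf, Erg, Esam, Egfl7 and Cldn5, and all 10 were found among the 14927 genes of the table. The cells came from aortas of wild-type C57BL/6 mice and were labelled as passages 3 to 7. After 24 h in medium with 0.5% serum they received vehicle or 100 ng/mL recombinant TWEAK, a TNF-family cytokine, in the same low serum for another 24 h. There were 3 vehicle and 3 TWEAK libraries of total RNA, 1 of each in experiments 1, 2 and 3. The labels call every culture smooth muscle, name no step that removes endothelium, and do not say whether the experiments came from separate animals. The p-values of the main fit measure how much the TWEAK to vehicle ratio varied among the 3 experiments, a spread that may therefore be technical. The test of differences among experiments takes the vehicle and the TWEAK library of an experiment as its replicates.

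Endothelial cells line the lumen of every vessel. They are held together by adherens and tight junctions, their quiescence depends on the angiopoietin receptors of the Tie family, and their identity is maintained by ETS family transcription factors such as ERG. In an explanted or digested aorta they lie next to the smooth muscle layer from which cultures are started. Several of the 10 genes are not restricted to endothelium: Pecam1 is also made by platelets and leukocytes, Vwf by megakaryocytes, Esam by platelets and Tek by some macrophages.

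Over the 3 experiments, the 10 genes differed more between experiments than between vehicle and TWEAK. None of the 10 passed limma's test of TWEAK against vehicle within experiments, and all 10 passed limma's F test of differences among experiments (Benjamini-Hochberg adjusted p under 0.05 over all 14927 genes). Among all genes 13.7% passed the first test and 48.6% the second. For 7 of the 10, RNA differed at least 6.60-fold between the highest and the lowest experiment, a difference reached by 2.89% of all genes. This cutoff is the value of Emcn, the smallest of those 7, so it was set from the members themselves. Bulk RNA cannot tell fewer endothelial cells from less of these transcripts per cell.

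For 4 of the members the stretch of 250 bases before a transcription start is shown, because these are the members with a single start in the RefSeq table, and they include the member that differed most among experiments (Cldn5) and the one that differed least (Tek). The sequences are from RefSeq, build GRCm38.p6, written 5′ to 3′ on the gene's strand; capitals mark GGAA or its reverse complement TTCC, the core of the sites that ETS factors bind.
Tie1 (chr4:118489850-118490099, minus strand): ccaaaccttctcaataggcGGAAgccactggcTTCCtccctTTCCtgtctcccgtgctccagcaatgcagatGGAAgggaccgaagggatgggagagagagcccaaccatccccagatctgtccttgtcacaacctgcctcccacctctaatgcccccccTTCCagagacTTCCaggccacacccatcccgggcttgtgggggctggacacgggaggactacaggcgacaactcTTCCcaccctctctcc
Emcn (chr3:137340828-137341077, plus strand): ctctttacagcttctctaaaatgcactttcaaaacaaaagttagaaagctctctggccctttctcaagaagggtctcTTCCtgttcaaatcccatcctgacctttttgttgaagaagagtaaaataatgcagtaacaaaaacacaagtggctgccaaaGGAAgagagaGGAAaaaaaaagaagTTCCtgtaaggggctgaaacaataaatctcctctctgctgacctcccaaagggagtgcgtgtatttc
Cldn5 (chr16:18776597-18776846, plus strand): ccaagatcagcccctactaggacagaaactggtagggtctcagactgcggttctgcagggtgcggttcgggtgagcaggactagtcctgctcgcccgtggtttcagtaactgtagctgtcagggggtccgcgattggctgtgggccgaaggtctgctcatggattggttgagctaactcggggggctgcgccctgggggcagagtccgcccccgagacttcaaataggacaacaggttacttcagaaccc
Tek (chr4:94739039-94739288, plus strand): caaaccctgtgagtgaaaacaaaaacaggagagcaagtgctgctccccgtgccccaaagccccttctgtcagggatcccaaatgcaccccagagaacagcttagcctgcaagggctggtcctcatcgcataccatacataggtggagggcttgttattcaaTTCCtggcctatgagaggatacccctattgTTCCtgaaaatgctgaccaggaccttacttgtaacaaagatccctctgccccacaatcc
RefSeq entries were matched by symbol for 6 members (Egfl7, Emcn, Tek, Tie1, Cldn5 and Erg), with 10 starts in all. GGAA, searched on both strands, occurred 7 times before the start of Tie1, 4 times before that of Emcn, 2 times before that of Tek and not at all before that of Cldn5. Of all 32851 starts there, 93.45% had at least 1 such match, with a median of 3, and 3.82% had 7 or more. Of the 10 member starts, 8 had at least 1 GGAA match, beside the 93.45% of all starts. The longer AGGAAG, which contains GGAA and was also searched on both strands, was found before 5 of the 10 member starts and before 29.48% of all starts. A match is a description of these letters, not a binding site, and its absence concerns this window alone.

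Pecam1, an adhesion molecule at the borders of endothelial cells, had 2253, 20068 and 10522 normalized counts in the vehicle libraries of experiments 1, 2 and 3 and 1972, 15874 and 9348 in the TWEAK libraries. Its lowest libraries were both from experiment 1 and its highest both from experiment 2, so the treatment groups overlapped along nearly their whole range. Experiment 2 lay 8.46-fold above experiment 1 (log2 difference 3.08, SE 0.09; limma adjusted p = 0.000191) and 1.80-fold above experiment 3 (adjusted p = 0.00482). Within experiments the ratio of TWEAK to vehicle was -0.19, -0.34 and -0.17 on the log2 scale, and the fitted change was -0.23 (SE 0.07, 95% interval -0.41 to -0.05, limma adjusted p = 0.0924).

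Cdh5, which encodes VE-cadherin, the adherens junction cadherin of endothelium, had 1911, 16217 and 8029 normalized counts with vehicle in experiments 1, 2 and 3 and 1885, 14724 and 7479 with TWEAK. The libraries of an experiment lay almost on top of each other. Experiment 2 was 8.14-fold above experiment 1 (limma adjusted p = 0.000191), and the change with TWEAK was -0.09 (SE 0.07, interval -0.26 to 0.08, adjusted p = 0.434), the smallest of the 10. Esam, an immunoglobulin-like molecule of endothelial tight junctions, had 501, 4335 and 2009 normalized counts with vehicle and 443, 2673 and 1786 with TWEAK. It followed the same order of experiments, and the TWEAK library of experiment 2 stood further below its vehicle partner (log2 ratio -0.70) than in experiments 1 (-0.18) and 3 (-0.17). The fitted change was -0.35 (SE 0.13, limma adjusted p = 0.146).

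Cldn5, the main claudin of endothelial tight junctions, had the widest span. It was at 126, 2916 and 864 normalized counts with vehicle and 152, 3832 and 1066 with TWEAK. TWEAK exceeded vehicle in each experiment, and yet the lowest TWEAK library was below the 2 higher vehicle libraries. Experiment 2 exceeded experiment 1 by 24.0-fold (log2 difference 4.58, SE 0.11; limma adjusted p = 0.000141) and experiment 3 by 3.48-fold (adjusted p = 0.00436). The log2 ratios of TWEAK to vehicle were 0.27, 0.39 and 0.30, the fitted change was 0.32 (SE 0.09, interval 0.10 to 0.54), and the adjusted p = 0.0712 was the smallest of the 10 in this test. Cldn5 was the only member above vehicle in all 3 experiments.

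**Figure D1:**
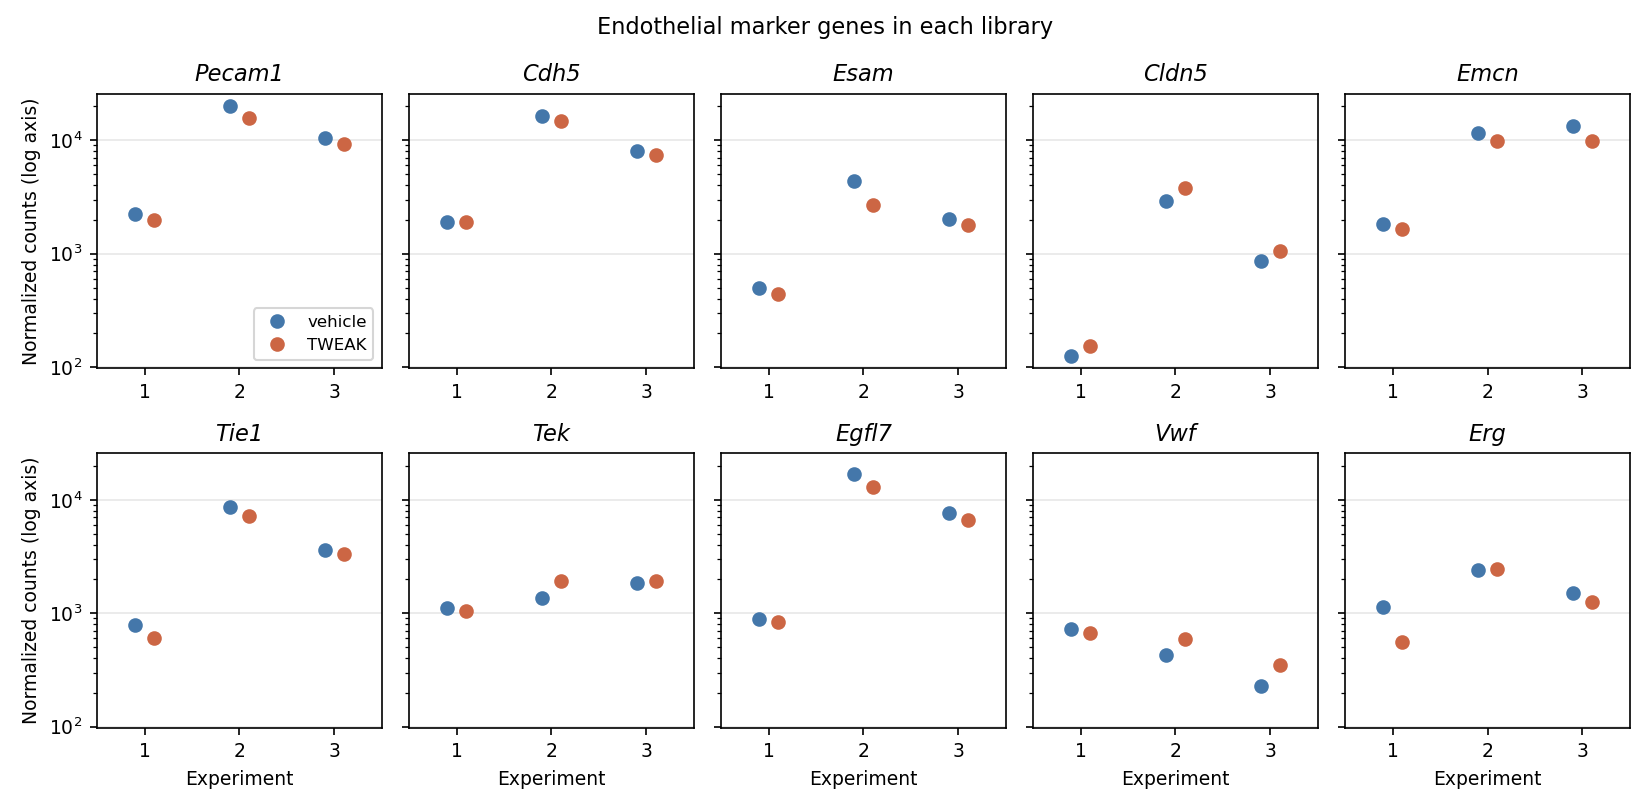
Normalized counts of the 10 genes (log axis) by experiment, with 1 blue point for the vehicle library and 1 orange point for the TWEAK library. For 7 genes the pairs of an experiment stay together while experiment 1 lies far below experiments 2 and 3; Tek is nearly level, Vwf is highest in experiment 1, and the pair of Erg in experiment 1 is split.

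Emcn encodes endomucin, a sialomucin of capillary and venous endothelium that limits leukocyte adhesion. It had 1824, 11601 and 13263 normalized counts with vehicle and 1650, 9877 and 9898 with TWEAK. Experiments 2 and 3 stood together and experiment 1 apart from both. Experiment 3 was 6.60-fold above experiment 1 (limma adjusted p = 0.000420), while experiments 3 and 2 differed by 0.10 on the log2 scale (SE 0.10, adjusted p = 0.469). Without experiment 1 Emcn no longer passed the test among experiments (adjusted p = 0.454). Its change with TWEAK was -0.27 (SE 0.08, interval -0.47 to -0.06, adjusted p = 0.0926), and without experiment 2 it was called at -0.28 (adjusted p = 0.00893).

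Of the pair of Tie receptors, Tie1 followed the junction genes and Tek did not. Tek, also called Tie2, binds the angiopoietins, while Tie1 has no well-established ligand of its own and modulates signalling by Tek. Tie1 had 783, 8697 and 3586 normalized counts with vehicle and 606, 7256 and 3314 with TWEAK, an 11.5-fold excess of experiment 2 over experiment 1 (limma adjusted p = 0.000191). Tek had 1116, 1352 and 1855 with vehicle and 1041, 1907 and 1928 with TWEAK. The Tek libraries thus covered less than a doubling in counts, with experiment 2 at 1.49-fold of experiment 1 (adjusted p = 0.0319) and experiment 3 at 1.75-fold (adjusted p = 0.0400).

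The F test among experiments for Tek (limma adjusted p = 0.0248) did not hold in limma without trend and robust estimation (0.0585), without experiment 1 (0.291) or without experiment 3 (0.0554). The fitted TWEAK change of Tie1 was -0.25 (SE 0.08, limma adjusted p = 0.105), with ratios of -0.37, -0.26 and -0.11. For Tek the ratios were -0.10, 0.50 and 0.06 and the fitted change was 0.15 (SE 0.13, interval -0.18 to 0.48, adjusted p = 0.480); without experiment 2 it was -0.022.

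Egfl7 encodes a secreted matrix-bound factor of endothelium whose gene also hosts the microRNA miR-126. Its normalized counts were 897, 16945 and 7704 with vehicle and 838, 12967 and 6629 with TWEAK. Only Cldn5 among the members differed more between experiments: Egfl7 was 17.1-fold higher in experiment 2 than in experiment 1 and 2.07-fold higher than in experiment 3 (limma adjusted p = 0.000143 and 0.00457). All 3 TWEAK libraries lay below their vehicle partners, with a fitted change of -0.23 (SE 0.08, limma adjusted p = 0.128).

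Vwf, the clotting glycoprotein stored in Weibel-Palade bodies of endothelium, ran in the other direction. It had 727, 431 and 230 normalized counts with vehicle and 674, 588 and 349 with TWEAK, so experiment 1 was highest and experiment 3 lowest in both groups. Experiment 1 was 2.46-fold above experiment 3 (limma adjusted p = 0.0199), and experiment 2 minus experiment 1 was -0.47 (SE 0.20, adjusted p = 0.0997). The F test gave an adjusted p = 0.0133, or 0.110 without experiment 3. Its change with TWEAK was 0.31 (SE 0.16, interval -0.10 to 0.73, adjusted p = 0.267), with ratios of -0.11, 0.45 and 0.60.

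Erg, the ETS factor needed to keep endothelial identity and junctions, had 1132, 2413 and 1497 normalized counts with vehicle and 554, 2452 and 1258 with TWEAK. Experiment 2 was the highest, 3.07-fold above experiment 1 (limma adjusted p = 0.00604), and the difference from experiment 1 to experiment 3 did not pass (adjusted p = 0.132). The pair of experiment 1 was the widest of any member, a log2 ratio of -1.03, against 0.02 and -0.25 in experiments 2 and 3. The fitted change was -0.42 (SE 0.21, interval -0.94 to 0.11, adjusted p = 0.244). The F test among experiments (adjusted p = 0.0143) was lost without experiment 2 (0.108).

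With all 3 experiments in the fit, the experiment outweighed the treatment for every member, but not without experiment 1. The largest difference between experiments was 3.87 times (Erg) to 34.8 times (Cdh5) the size of the fitted TWEAK change on the log2 scale, where the median over all genes was 2.83 times. Without experiment 1, the experiment difference was smaller than the TWEAK change for Emcn (0.10 against -0.33) and for Tek (0.24 against 0.28), and that of Pecam1 went from 3.08 to 0.85. The experiment accounted for 82.4% (Erg) to 99.8% (Cdh5) of a member's sum of squares on the log2 scale and TWEAK for 0.12% (Cdh5) to 8.26% (Erg). Over all genes the medians were 73.5% and 12.3%, and the experiment has more degrees of freedom than TWEAK. For 6 members the share of the experiment was over 98%, which held for 3.77% of all genes. This cutoff falls in a gap of the members' own values, between Esam (96.9%) and Emcn (98.7%), so the contrast is a description. The order of the experiments was the same in the vehicle and in the TWEAK libraries for 10 of 10 members and for 58.0% of all genes, and it was experiment 2 over 3 over 1 for 7 members and for 30.5% of all genes.

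Between pairs of experiments, 9 members were called higher in experiment 2 than in experiment 1 and none lower, where 25.4% of all genes were higher, 27.3% lower and 52.7% either. In experiment 3 against experiment 1, 8 members were higher and 1, Vwf, was lower, beside 4.35% of genes higher, 5.35% lower and 9.70% either. In experiment 3 against experiment 2 no member was higher and 7 were lower, beside 18.8% higher, 14.3% lower and 33.1% either. Experiment 1 was the lowest for 9 members (37.5% of all genes) and experiment 2 the highest for 7 (45.1%).

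With TWEAK, 6 members were lower in all 3 experiments (Pecam1, Cdh5, Esam, Emcn, Tie1 and Egfl7), Cldn5 was higher in all 3, and Tek, Vwf and Erg were mixed; of all genes, 27.0% were lower in all 3, 28.2% were higher and 55.2% were one or the other. The vehicle and TWEAK libraries overlapped for every member, and did not for 2391 of the 14927 genes. The count of 0 called members in limma came with 6 members at an unadjusted p under 0.05. The share of all genes under that unadjusted threshold was not counted, and 13.7% of all genes passed after adjustment. In edgeR with TMM and in DESeq2, both on the recovered reads and with the experiment as a block, the count was also 0, as it was in the authors' deposited table, in which 18.1% of all genes pass the same threshold, 10.8% upward and 7.31% downward. Cldn5 is listed in the authors' deposited table with a log2 change of 0.33 and an adjusted p = 0.0590, and Emcn with -0.27 and 0.0845. When each library was corrected for GC and length, 5 members were called (Emcn at -0.46, Pecam1 at -0.29, Esam at -0.31, Tie1 at -0.24 and Cldn5 at 0.37; limma adjusted p from 0.00851 to 0.0383), in a fit that called 4292 genes. Without the block the SE of the change ran from 0.32 (Tek) to 1.57 (Cldn5), and no member passed (limma adjusted p = 0.999 for each), as against 0.0201% of all genes.

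**Figure D2:**
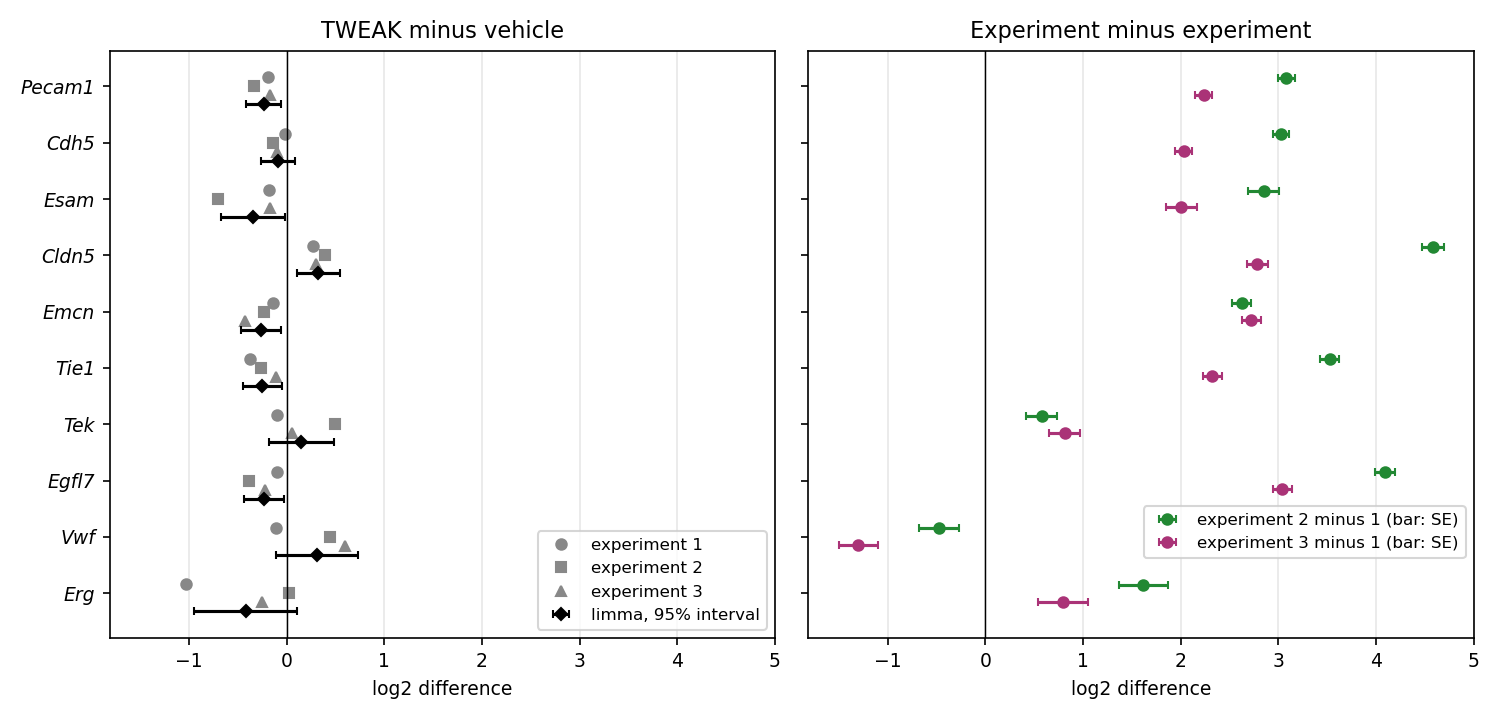
Left, log2 ratio of TWEAK to vehicle in each experiment (grey) with the limma estimate and its 95% interval (black); right, fitted log2 difference of experiments 2 and 3 from experiment 1 with its SE, on the same axis. Fitted treatment changes stay between -0.42 and 0.32, while experiment differences reach 4.58 and fall below 0 for Vwf alone.

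The levels of the 10 genes were compared with each other per kilobase of the longest protein-coding transcript in GENCODE M21. On this scale of normalized counts per kilobase, the vehicle means were 6122 ± 5791 for Egfl7, 3437 ± 2388 for Emcn, 3182 ± 2591 for Pecam1 and 2182 ± 1797 for Cdh5 (SD, n = 3). Below them came Esam at 1223 ± 1036, Tie1 at 1029 ± 948, Cldn5 at 919 ± 1021, Erg at 517 ± 203, Tek at 310 ± 81.1 and Vwf at 52.4 ± 28.3 (SD, n = 3). Because the experiments differ so much, only the neighbours Tek and Vwf in this order differ by more than the sum of their SDs, and the order is better read within a library.

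Per kilobase and within libraries, Egfl7, Emcn and Pecam1 exceeded Cdh5 in 6 of 6 libraries, and Vwf was the lowest of the 10 in 6 of 6. Pecam1 kept a nearly constant level beside Cdh5, between 121 and 152 per 100 of Cdh5. Esam also stayed within a narrow band, 38.9 to 57.3 per 100, as did Tie1, 30.3 to 50.6 per 100. Cldn5 per 100 of Cdh5 was 18.6 and 22.8 in the vehicle and TWEAK libraries of experiment 1, 50.7 and 73.4 in those of experiment 2, and 30.4 and 40.2 in those of experiment 3. Egfl7 was at 135 and 128 in experiment 1, and between 253 and 300 in the other libraries.

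Emcn, at 147 and 135 per 100 of Cdh5 per kilobase in experiment 1, was lowest in experiment 2, at 110 and 104, and highest in experiment 3, at 255 and 204. Tek, Vwf and Erg were highest beside Cdh5 in experiment 1. Tek was at 50.1 and 47.4 per 100 of Cdh5, per kilobase, in experiment 1, at 7.16 and 11.1 in experiment 2 and at 19.8 and 22.1 in experiment 3. Vwf was at 17.2 and 16.2 in experiment 1 and between 1.20 and 2.11 elsewhere, and Erg was at 72.8 and 36.1 in experiment 1 and between 18.3 and 22.9 elsewhere. The 10 transcripts therefore did not keep fixed proportions from one experiment to the next. These proportions are a description, with no test.

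**Figure D3:**
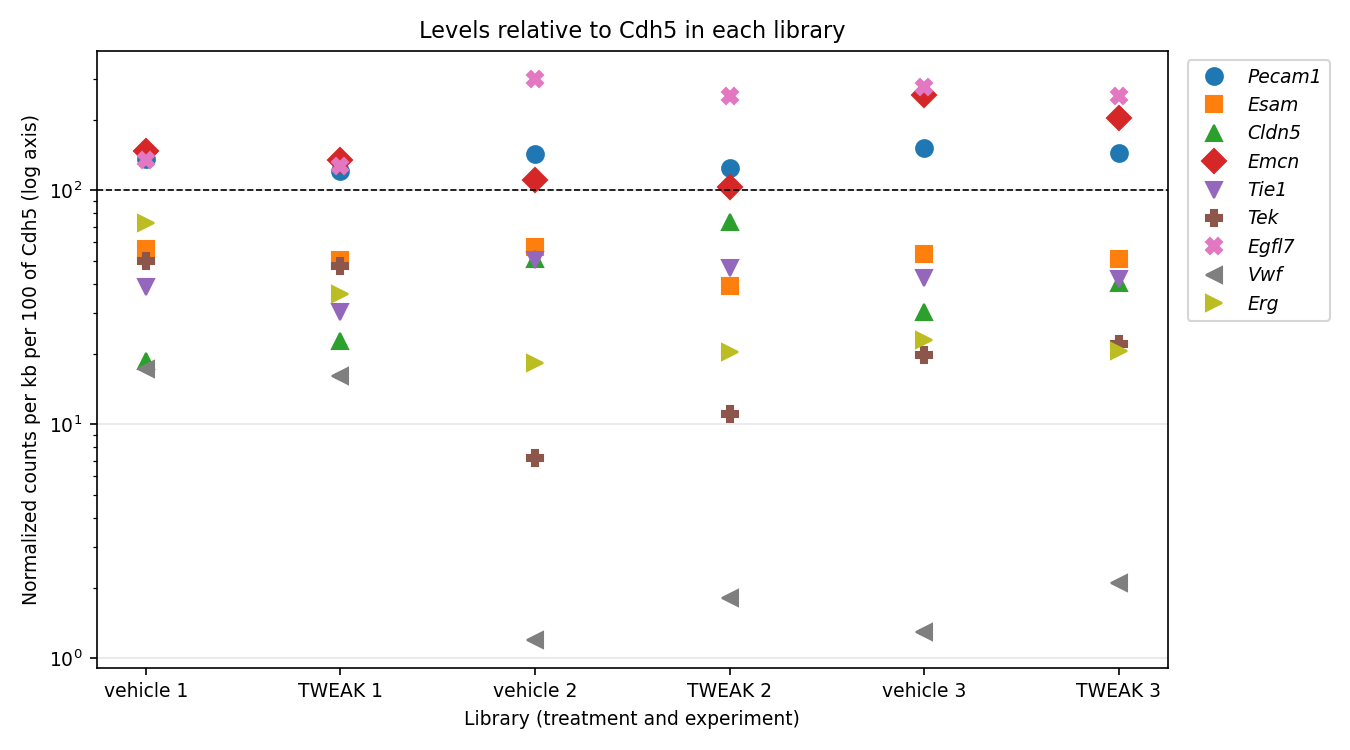
Normalized counts per kilobase of 9 genes for every 100 of Cdh5 (dashed line, log axis) in the 6 libraries. Pecam1, Esam and Tie1 stay in narrow bands, while Vwf, Tek and Erg are highest beside Cdh5 in experiment 1 and Cldn5 is lowest there.

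A list of 50 other genes of endothelium, written from textbook knowledge with earlier results of these data known, had 45 measured genes. Of these, 39 differed among experiments in limma's F test (median largest log2 difference 2.23, against 0.49 over all genes), 39 were higher in experiment 2 than in experiment 1 and 2 were lower, where 25.4% and 27.3% of all genes were called in these directions. With TWEAK 3 of the 45 rose and 3 fell; the median change was -0.08 on the log2 scale (0.02 over all genes; 8.11% of genes rose and 5.55% fell). Leaving out experiment 1 left 23 of them called among experiments.

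Among the abundant genes of that list, Cd34, a sialomucin shared with fibroblasts and progenitors, had 1161, 12213 and 5168 normalized counts with vehicle and 1736, 11133 and 6942 with TWEAK. Eng, the TGF-beta coreceptor endoglin, had 6440, 12566 and 9963 with vehicle and 7066, 9777 and 8804 with TWEAK, a much smaller step of 1.64-fold from experiment 1 to 2 whose F test (limma adjusted p = 0.0213) was lost without experiment 1 and in limma without trend and robust estimation. Ptprb, the phosphatase VE-PTP that acts on Tek and VE-cadherin, went the other way, 1.62-fold higher in experiment 1 than in 2 (F test adjusted p = 0.0374, lost without experiment 1, in edgeR with TMM, in limma without trend and robust estimation and after the GC and length correction). So not every gene used to mark endothelium followed Pecam1 and Cdh5. Cd93 was 2.54-fold and Ctla2a 3.43-fold higher in experiment 2 than in 1, and Dysf, which encodes a membrane repair protein that muscle also makes, was level (1.02-fold).

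Of the 6 genes of that list called with TWEAK, Slco2a1, a prostaglandin transporter, rose by 0.63 (SE 0.07, limma adjusted p = 0.00694; 0.817 unpaired), and Abcb1a, a drug efflux pump, by 2.18 (SE 0.27, 0.00905). The Abcb1a libraries were 100, 144 and 152 normalized counts with vehicle and 284, 1065 and 685 with TWEAK, without overlap. Clec14a, a C-type lectin of endothelium, fell by 0.78 (SE 0.12, limma adjusted p = 0.0157) and Dysf fell by 0.60 (SE 0.09, 0.0117). Ecscr (0.56, adjusted p = 0.0167) and Tmem204 (-0.61, 0.0242) were named after their values were seen. Apart from Abcb1a, each of these calls was lost on leaving out experiment 3, and all of those but Dysf also on leaving out experiment 1, and all were lost unpaired.

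**Figure D4:**
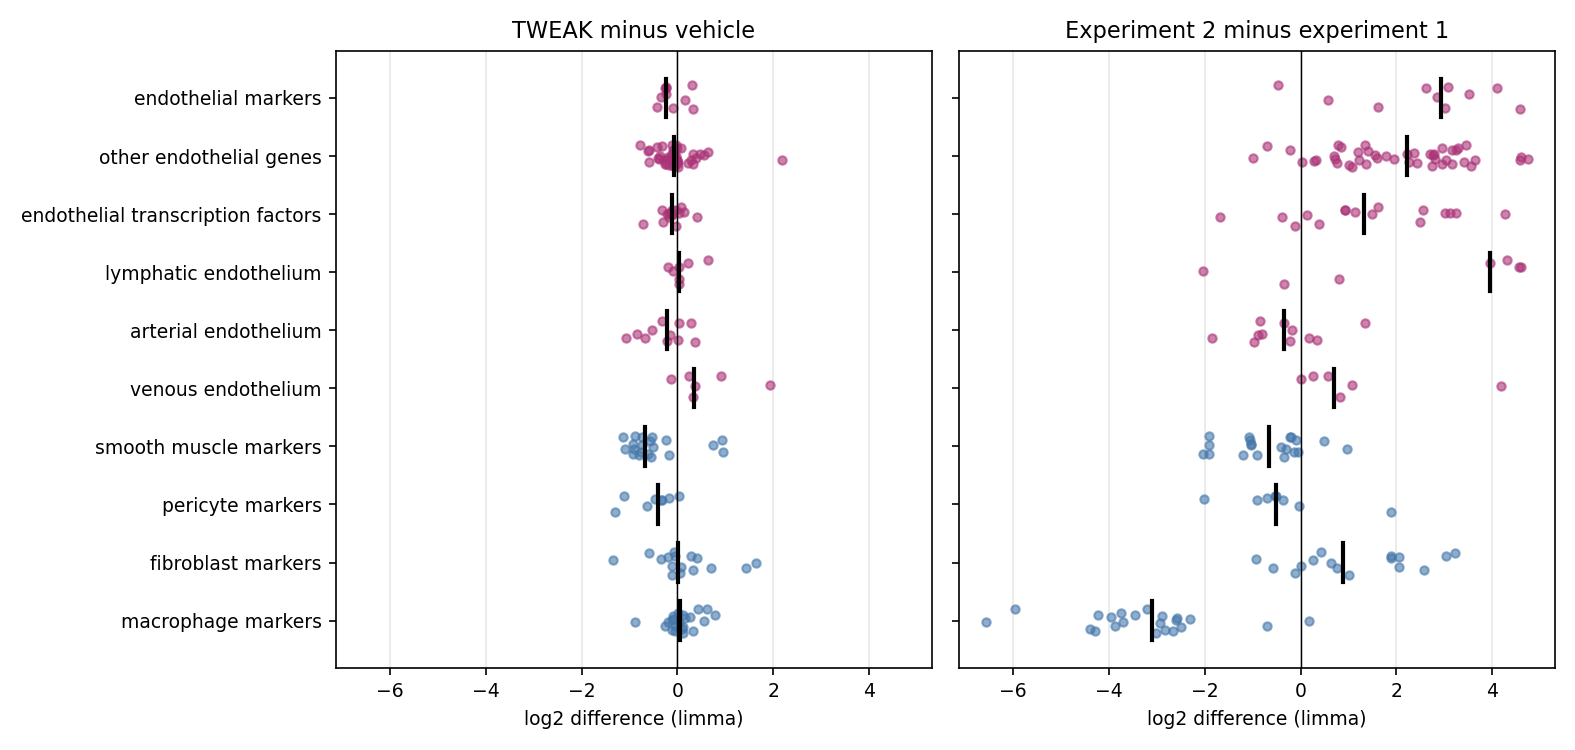
Fitted log2 differences of the genes of 10 lists, for TWEAK against vehicle (left) and experiment 2 against experiment 1 (right), 1 point for each gene with the list median as a black bar. The endothelial markers have medians of -0.23 and 2.94, the other endothelial genes -0.08 and 2.23, the smooth muscle markers -0.67 and -0.66 and the macrophage markers 0.06 and -3.11.

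Of 16 measured transcription factor genes of endothelium, 13 differed among experiments, or 6 without experiment 1. In experiment 2 against experiment 1, 12 were higher and 2, Mef2c (-1.68, limma adjusted p = 0.00392) and Ets1 (-0.38, 0.0483), were lower, beside 25.4% and 27.3% of all genes. Mef2c and Ets1 were named after their values were seen. Sox18, chosen after its values were seen and a SOX factor of endothelial and lymphatic development, had 80.7, 1465 and 606 normalized counts with vehicle and 72.2, 1527 and 523 with TWEAK. With TWEAK 1 of the 16 fell, Klf2, a factor induced by flow, by 0.73 (SE 0.09, limma adjusted p = 0.00905; 0.238 unpaired; lost without experiment 1 or 3).

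Of the 10 genes listed for the angiopoietin and Tie axis, which include Tek and Tie1, 1 rose and 4 fell with TWEAK, with a median of -0.28. Of all genes 8.11% rose and 5.55% fell. The list is mixed: Angptl4, which rose, and Angptl1 and Angptl2, which fell, are angiopoietin-like genes, not angiopoietins or Tie receptors. Angptl4, an inhibitor of lipoprotein lipase, rose by 1.69 (SE 0.12, limma adjusted p = 0.00341), with 668, 2458 and 2690 normalized counts with vehicle and 1774, 7800 and 10637 with TWEAK. Angpt2, which antagonises Angpt1 at Tek in many settings, fell by 0.55 (SE 0.12, limma adjusted p = 0.0471); it was picked with its value known. Its call was lost without experiment 1 or 3, with edgeR and TMM and in limma without trend and robust estimation, and the calls of Angptl1 (-1.75), Angptl2 (-0.31) and Svep1 (-0.40), a matrix protein that binds Tie1, were lost in at least as many settings. Of the 10 genes 9 differed among experiments, where 48.6% of all genes did, or 2 without experiment 1. In experiment 2 against experiment 1, 4 were higher and 4 lower, where 25.4% and 27.3% of all genes were.

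Of 23 measured junction genes 17 differed among experiments, where 48.6% of all genes did. These 17 include the 4 members in the list, Cdh5, Cldn5, Esam and Pecam1. The list's median largest log2 difference was 0.67, against 0.49 over all genes. With TWEAK Heg1, which anchors the CCM complex at endothelial junctions, rose by 0.55 (SE 0.07, limma adjusted p = 0.00727) and Jam2 fell by 0.58 (SE 0.10, 0.0184). Both calls were lost without experiment 1 or 3. The median was 0.07, and 8.11% of all genes rose and 5.55% fell.

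The vessel type lists did not move as one with the experiments. In experiment 2 against experiment 1, 25.4% of all genes were higher and 27.3% lower. Of 11 genes of arterial endothelium, 8 differed among experiments, and 1 was higher and 5 were lower in experiment 2 than in 1. Of 6 measured venous genes 3 differed among experiments, close to the 48.6% of all genes, and 3 were higher in experiment 2 than in 1 and none lower. Of 7 measured lymphatic genes 6 differed, with 5 higher and 1 lower in experiment 2. Named after their values were seen, the lymphatic regulator Prox1 had 36.4, 486 and 377 normalized counts with vehicle, the hyaluronan receptor gene Lyve1 54.1, 713 and 618, and Flt4, the receptor for VEGF-C, 195, 4623 and 2444. These 3 were lowest in experiment 1, as most of the members were. Reln, a secreted matrix glycoprotein of the same list that was also named after its values were seen, went the other way, with 2042, 478 and 179 normalized counts with vehicle, and experiment 2 minus experiment 1 was -2.03 on the log2 scale (limma adjusted p = 0.000593). The 2 most abundant genes of the list were Pdpn, 1.75-fold higher in experiment 2 than in 1, and Itga9, which did not differ among experiments (adjusted p = 0.132).

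With TWEAK 4 arterial genes fell and none rose, 2 venous genes rose and none fell (8.11% of all genes rose and 5.55% fell), and no lymphatic gene was called in limma (the range over the alternatives was 0 to 1). The arterial falls were in the Notch target Hey2 (-0.67), the connexin gene Gja4 (-0.84), the kinase gene Bmx (-1.07) and the netrin receptor gene Unc5b (-0.52), with limma adjusted p from 0.0124 to 0.0453, and each was lost without experiment 1. The venous rises were in Vcam1 (0.90, adjusted p = 0.0196), a leukocyte adhesion molecule that smooth muscle also makes, and Darc (1.94, 0.0168), the atypical chemokine receptor, which was at 12.8 and 8.06 normalized counts in the vehicle libraries of experiments 1 and 3. Both venous calls were lost without experiment 3.

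Of 13 genes linked to endothelial activation, 5 rose and 1 fell with TWEAK, where 8.11% of all genes rose and 5.55% fell. The list's median was 0.41 on the log2 scale. Cxcl16, a membrane-bound chemokine, rose by 2.10 (SE 0.21, limma adjusted p = 0.00598), and Madcam1, an adhesion ligand for leukocytes, by 4.55 (SE 0.51, 0.00707). The call of Cxcl16 was lost without experiment 2. Plat, tissue plasminogen activator, rose by 0.52 (limma adjusted p = 0.0102). The call of Plat was lost without experiment 1 or 3. The other 2 that rose were Icam1 and Vcam1. Of these 13 genes 9 differed among experiments, where 48.6% of all genes did. The P-selectin gene Selp, named after its values were seen, whose product is stored with Vwf, had 169, 4535 and 1636 normalized counts with vehicle and 263, 3254 and 3124 with TWEAK, lowest in experiment 1 where Vwf was highest.

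Markers of other cell types also differed among experiments, in some lists at a share not far from the 48.6% of all genes. Of 22 measured macrophage markers, 21 differed among experiments. In experiment 2 against experiment 1, 20 were lower and none was higher, where 27.3% and 25.4% of all genes were. The summed level of the 22 ran from 80881 to 84562 normalized counts in experiment 1, from 11063 to 11548 in experiment 2 and from 4061 to 4347 in experiment 3. None of them is at 0 in any library, and none was called with TWEAK in limma (0 to 2 over the alternatives). The summed level of the 10 endothelial members was 9816 to 11270 in experiment 1, 72150 to 84976 in experiment 2 and 43056 to 49560 in experiment 3, so the macrophage sum was highest where the endothelial sum was lowest, and Vwf, alone among the members, was highest in the same experiment as the macrophage genes.

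Of 20 smooth muscle markers 13 differed among experiments, or 65.0%, where 48.6% of all genes did. In experiment 2 against experiment 1, 11 were lower and 2 higher, where 27.3% and 25.4% of all genes were. With TWEAK 14 fell and 3 rose, where 5.55% and 8.11% of all genes did. The smooth muscle sum was 490969 to 529167 with vehicle and 283669 to 378557 with TWEAK, so smooth muscle transcripts were present throughout, as the label says. Of 16 fibroblast markers 10 differed among experiments, 11 were higher and 1 lower in experiment 2 than in 1, and 3 rose and 2 fell with TWEAK. Of 8 measured pericyte markers 7 differed among experiments and 4 fell with TWEAK. Of 8 measured mesothelial markers 5 differed and 2 fell, and of 5 measured megakaryocyte and platelet markers 2 differed and 1 fell. Of 3 measured lymphocyte markers 2 differed and none was called with TWEAK. The share that differed was 62.5% for the fibroblast and the mesothelial list, 87.5% for pericyte, 40% for platelet and 66.7% for lymphocyte markers. The platelet genes summed to 3872 to 6446 normalized counts and the lymphocyte genes to 113 to 273. The part of these other cell types in the levels of the 10 genes was not tested.

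**Figure D5:**
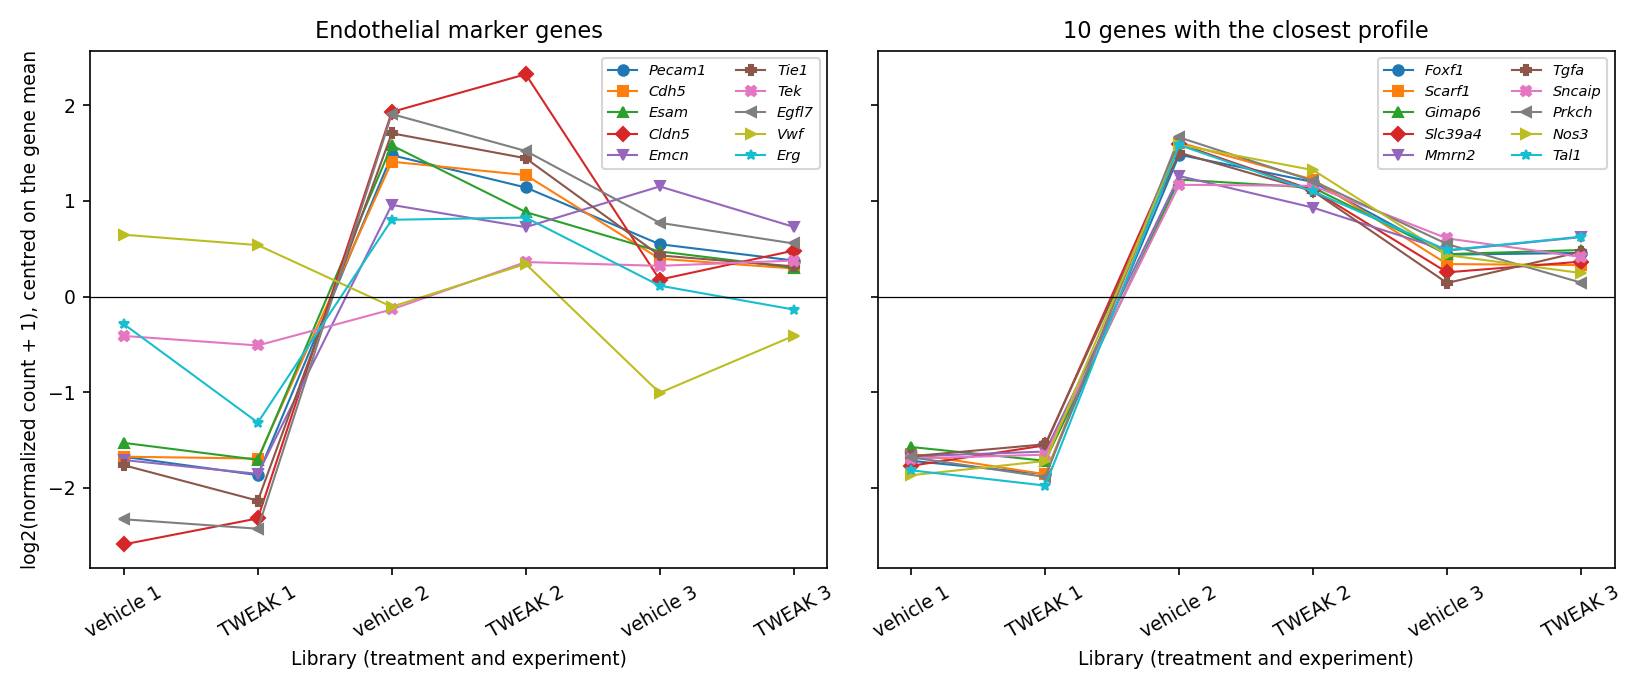
Left, log2(normalized count + 1) of the 10 endothelial marker genes centred on each gene's mean, by library; right, the same for the 10 other genes closest to the median profile of the markers. On the left Vwf and Tek leave the shared course, and on the right all 10 genes are lowest in experiment 1 and highest in experiment 2. The course on the right follows from the choice of those genes by profile.

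The genes whose course over the 6 libraries was most like the median of the members were ranked by the root mean square distance between centred log2 profiles, among 11958 named genes with a mean of at least 100 normalized counts. The 10 nearest were Foxf1 (0.10), Scarf1 (0.12), Gimap6 (0.13), Slc39a4 (0.14), Mmrn2 (0.16), Tgfa (0.16), Sncaip (0.16), Prkch (0.16), Nos3 (0.17) and Tal1 (0.17). Nos3, endothelial nitric oxide synthase, had 271, 2978 and 1339 normalized counts with vehicle and 300, 2479 and 1175 with TWEAK. Mmrn2, a matrix protein of endothelium, had 1184, 9033 and 5259 with vehicle and 1225, 7181 and 5801 with TWEAK. Foxf1 and Tal1 are transcription factors, Scarf1 a scavenger receptor, Gimap6 a GTPase of the immunity-associated family, Slc39a4 a zinc transporter, Tgfa a ligand of the EGF receptor, Sncaip a synuclein-binding protein and Prkch a protein kinase C. All 10 differed among experiments and none was called with TWEAK in limma. Both follow largely from the choice of genes by this profile and are not a separate result.

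Measured in the same way, Pecam1 (0.09), Esam (0.11) and Cdh5 (0.11) lay closest to the median of which they are part, then Tie1 (0.26), Emcn (0.41), Egfl7 (0.50), Erg (0.70) and Cldn5 (0.73). Tek and Vwf were the farthest, Vwf at 1.64, farther than most of the 11958 genes. All libraries were deep, with 62632273 to 82118717 reads over the genes of the table, and the members rested on 128 reads (Cldn5, vehicle, experiment 1) to 21280 reads (Pecam1, vehicle, experiment 2).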

How the data were processed

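Total RNA of 6 libraries of cultured aortic smooth muscle cells was measured. A single table with 14927 symbols was deposited. Per the file headers its columns are the authors' mean, their log2 fold change and its standard error (log2), their Wald statistic (a score), their raw and adjusted p-value, and the normalized counts of each library. These columns are a signal, read counts divided by the authors by 1 size factor per library, per the submitters' processing notes with DESeq2; no aligner, counter, strand setting, build or annotation is named in the labels, so overlapping or antisense genes cannot be told apart. All values (100% within a tolerance of 0.01) were whole multiples of 1 read, so reads were recovered. Columns were matched to samples by treatment and by the experiment number, taken as the replicate number.

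The main test was limma 3.58.1 in R 4.3.3 (trend, robust, two-sided) on log2(normalized count + 1), which understates changes of low genes, with treatment and experiment as terms. Experiment differences came from an F test and 3 pairwise contrasts of the same fit. P-values were adjusted by Benjamini-Hochberg over all 14927 genes, with 0.05 as the threshold; the lowest mean was 14.4, so a minimum mean of 1 removed none. Fold differences are 2 to the power of fitted log2 differences. Deviations from group means correlated at 0.879, 0.868 and 0.734 between libraries of the same experiment number, all over 0.1 across genes, so the numbers pair the libraries. No 2 libraries were duplicates (lowest chi-square per degree of freedom 90.7). Alternatives were edgeR 4.0.16 and DESeq2 1.42.0 on the recovered reads, other scalings, pseudocounts and filters, a GC and length correction (GENCODE M21, values for 99.1% of genes), no block, and leaving out each experiment. The fit was tested on simulated reads.

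The members, the 16 gene lists, the rule for named genes and the tests were chosen with earlier results of these data known. The rule took the members, up to 4 TWEAK-called genes of each list by adjusted p (or, with no call, its 2 most abundant genes), the 6 most abundant other endothelial genes and the 10 genes nearest in profile; not all are reported here. Figures were drawn with matplotlib 3.10.9.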

Additional observations from a re-analysis of the deposited data

How the results depend on the processing

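All 10 members kept their direction with TWEAK under 13 of the 14 alternatives; on leaving out an experiment the change of Tek ran from -0.022 (without experiment 2) to 0.28 (without experiment 1). The number of members called with TWEAK was 0 except for 2 with quantile normalization (Emcn and Esam), 5 after the GC and length correction, 1 with edgeR and upper quartile scaling (Emcn) and 0 to 1 on leaving out an experiment. The number called among experiments was 8 to 10. Genes called with TWEAK numbered 2039, and 3 without the replicate block, 3132 with quantile normalization, 4292 with the GC and length correction (1821 higher and 2471 lower, against 1210 and 829), 1225 in limma without trend and robust estimation, and 666 (without experiment 3) to 3902 (without experiment 2) on leaving out an experiment; the causes of these differences were not tested. Genes called among experiments numbered 7251, and 2763 (without experiment 1) to 6054 on leaving one out. Taking the replicate block out of the main limma fit lowered the genes called with TWEAK from 2039 to 3. In that fit no member was called with or without the block. With 3 experiments and no second pair in any of them, a treatment effect that differs between experiments could not be tested.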
